A study of Mus musculus with 3 samples.

Results

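The 10 genes described here encode the proteins that hold a cell before DNA synthesis or release it: 7 inhibitors of cyclin-dependent kinases and the 3 D-type cyclins. They were chosen by gene symbol, a rule that uses no measured value, and all 10 were found among the 44625 gene entries of the table. Polyadenylated RNA was sequenced in 3 libraries of back skin cells labelled Alpha6+/Sca1- (with integrin alpha6, without Sca1). The mice were wild type and at postnatal day 56, when the hair cycle is in its second telogen, a resting phase. Skin was digested with trypsin, the epidermis was separated from the dermis, and live cells were sorted. The libraries form 1 group with replicate numbers 1 to 3, and the labels speak of biological duplicates, so each SD may rest on fewer independent collections than its n. The sort antibody named in the labels is against integrin alpha6, and none against Sca1 is named. No group of another genotype, age or treatment was analysed here.

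D-type cyclins bind CDK4 and CDK6, and the active kinases phosphorylate the retinoblastoma protein and its relatives, which frees E2F transcription factors to switch on genes for DNA synthesis. INK4 inhibitors bind CDK4 and CDK6 directly and keep D cyclins off them, while CIP/KIP inhibitors bind cyclin-CDK complexes and block CDK2 in particular. Hair follicle stem cells rest in the bulge through telogen, where the transcription factor NFATc1 is known to repress Cdk4, and the INK4 locus is a known target of Polycomb repression through the histone mark H3K27me3.

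The libraries held 29283936 to 39198620 counts. Markers of the labelled cells were present: Itga6 stood at 102, 120 and 112 TPM (counts corrected for gene length, then for library depth) in replicates 1, 2 and 3, and Krt15, a keratin of the bulge, at 19607, 25612 and 24404 TPM. Ly6a, which encodes Sca1, stood at 3.16, 11.6 and 8.99 TPM. Of the 5 endothelial markers, Cdh5, Cldn5 and Emcn had 0 counts in every library, and the 6 immune markers summed to 2.91 to 5.51 TPM. The 6 fibroblast markers summed to 18 to 45.3 TPM with Lum at 0 counts, and the 6 melanocyte markers to 14.6 to 16 TPM. The 8 sebaceous gland markers, of which 4 were detected, summed to 177 to 273 TPM, and the 6 upper follicle markers to 3192 to 4715 TPM. The 8 suprabasal epidermis markers, all detected, summed to 4782 to 8440 TPM, and the 6 basal keratinocyte markers to 23306 to 33329 TPM. Replicate 1 stood apart: the biological coefficient of variation (the spread between libraries beyond counting error, from edgeR's common dispersion) was 0.320 over 3 libraries and 0.176 without it.

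Because the results turn on the locus that holds Cdkn2a and Cdkn2b, the 250 bases upstream of their RefSeq start sites (GRCm38.p6, minus strand) are shown, beside those of Cdkn2d, the most abundant INK4 gene. Cdkn2a has a distal start, which is that of p19Arf, and a proximal start, which is that of p16Ink4a. Sequences run 5′ to 3′ and end at the base before the start, and capitals mark CpG dinucleotides. The windows lie at chr4:89311033-89311282 (Cdkn2b), chr4:89294620-89294869 (Cdkn2a distal), chr4:89282193-89282442 (Cdkn2a proximal) and chr9:21291210-21291459 (Cdkn2d).
Cdkn2b: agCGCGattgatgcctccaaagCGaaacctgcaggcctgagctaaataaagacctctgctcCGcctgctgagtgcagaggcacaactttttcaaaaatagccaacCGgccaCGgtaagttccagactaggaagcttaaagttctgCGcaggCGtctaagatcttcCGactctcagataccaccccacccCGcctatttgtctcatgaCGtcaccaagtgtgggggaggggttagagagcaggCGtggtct
Cdkn2a distal: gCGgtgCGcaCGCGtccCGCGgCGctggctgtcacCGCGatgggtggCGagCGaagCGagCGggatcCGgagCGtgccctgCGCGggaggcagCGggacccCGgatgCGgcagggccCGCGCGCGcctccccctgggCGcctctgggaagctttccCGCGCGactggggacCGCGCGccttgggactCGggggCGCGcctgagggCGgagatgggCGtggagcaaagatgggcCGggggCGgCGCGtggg
Cdkn2a proximal: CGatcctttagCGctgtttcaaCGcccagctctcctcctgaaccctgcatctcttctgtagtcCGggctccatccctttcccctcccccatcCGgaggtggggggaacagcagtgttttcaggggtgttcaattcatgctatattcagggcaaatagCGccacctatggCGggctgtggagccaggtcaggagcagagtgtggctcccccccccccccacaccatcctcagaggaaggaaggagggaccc
Cdkn2d: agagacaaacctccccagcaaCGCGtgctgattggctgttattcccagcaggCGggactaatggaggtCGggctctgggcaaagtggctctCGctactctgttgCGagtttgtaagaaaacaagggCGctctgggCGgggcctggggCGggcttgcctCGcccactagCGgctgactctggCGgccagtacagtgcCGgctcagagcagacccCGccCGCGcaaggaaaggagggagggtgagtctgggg

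The distal Cdkn2a window held 40 CpG dinucleotides, more than 98.7% of the 32851 windows of the same length in the RefSeq table, whose median is 6. The Cdkn2b window held 12, the Cdkn2d window 16 and the proximal Cdkn2a window 7. A GC box, searched as GGGCGG on both strands, occurred 2 times in the distal Cdkn2a window, 3 times in that of Cdkn2d and 0 times in those of Cdkn2b and proximal Cdkn2a, against 32.7% of all windows with at least 1. An E2F-type motif, searched as TTTNNCGC on both strands, occurred once in each Cdkn2a window and 0 times in those of Cdkn2b and Cdkn2d, against 4.28% of all windows. AP-1 (TGANTCA) and E-box (CACGTG) letters occurred in none of these windows, against 6.75% and 6.02% of all windows. These are matches of letters and not measured binding.

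The sorted cells carried transcripts of 9 of the 10 genes. As family sums, the CIP/KIP inhibitors stood well above the INK4 inhibitors. Singly, the INK4 gene Cdkn2d lay above the CIP/KIP gene Cdkn1c in every library. Cdkn1a was the most abundant of all, and Cdkn2a had 0 counts. A TPM of at least 1 in every library was met by 9 members, against 27% of all entries. The median of the members' mean levels was 27.1 TPM, beside 17.8 TPM over the 12049 genes detected by this rule. In bulk RNA, fewer cells expressing a gene and less RNA per cell cannot be told apart.

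**Figure D1:**
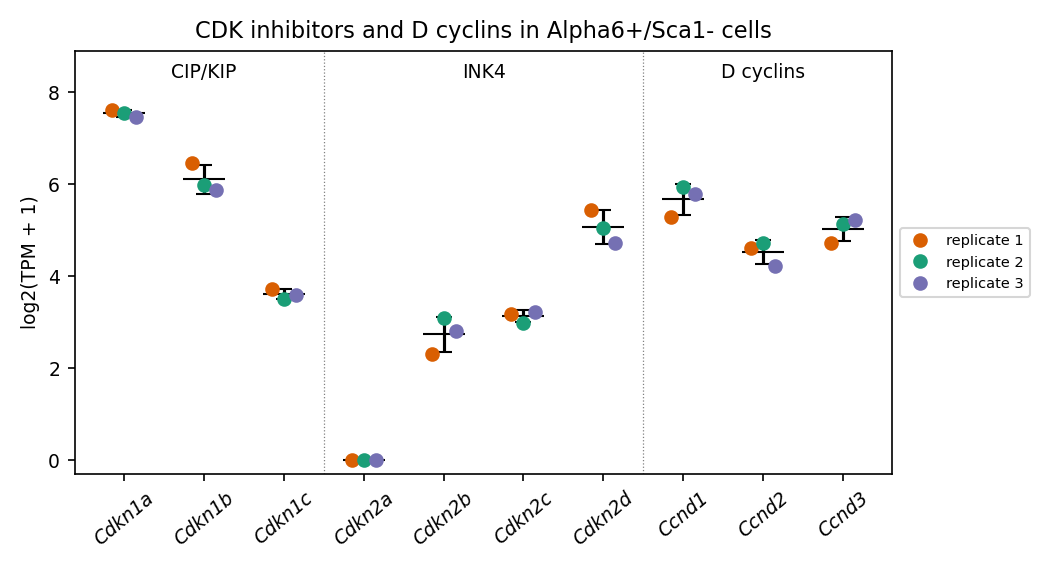
Level of each gene in each library as log2(TPM + 1), with coloured points for the 3 replicates, and a black dash and bar for their mean and SD. Cdkn1a is the highest in every library, and Cdkn2a lies at 0 in all 3.

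Cdkn1a encodes p21Cip1, the inhibitor best known as a target of p53. It lies on chromosome 17 from 29090976 to 29100727 (GRCm38, plus strand) and stood at 196, 185 and 175 TPM in replicates 1, 2 and 3, a mean of 185 ± 10.3 (SD, n = 3). The libraries lay close together, within 0.16 on the log2 scale, and this mean exceeded that of 95.5% of 13664 genes whose mean reached 1 TPM. Cdkn1b encodes p27Kip1, which accumulates in cells that leave the cycle. It lies on chromosome 6 from 134920401 to 134925513 (plus strand) and stood at 87.7, 62.2 and 57.4 TPM, a mean of 69.1 ± 16.3. Replicate 1 was the high library here, and the others lay close together. Cdkn1c encodes p57Kip2, an imprinted gene expressed from the maternal copy. It lies on chromosome 7 from 143458339 to 143461050 (minus strand) and stood at 12.3, 10.4 and 11.1 TPM, a mean of 11.3 ± 0.943. Its libraries differed by 0.24 on the log2 scale. Of the summed CIP/KIP level, Cdkn1a held 70.0% ± 3.28, Cdkn1b 25.8% ± 3.37 and Cdkn1c 4.25% ± 0.271 (SD, n = 3), and the 3 ranges did not overlap.

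Among the INK4 genes Cdkn2d, which encodes p19Ink4d, was the most abundant in every library. It lies on chromosome 9 from 21288410 to 21291407 (minus strand) and stood at 42.6, 32.1 and 25.4 TPM, a mean of 33.3 ± 8.66 (SD, n = 3), which was 70.2% ± 7.07 of the summed INK4 level. Cdkn2c, which encodes p18Ink4c, lies on chromosome 4 from 109660876 to 109667189 (minus strand). It stood at 8.12, 6.93 and 8.35 TPM, a mean of 7.80 ± 0.760. Cdkn2b, which encodes p15Ink4b, a gene known to be induced by TGF-beta, lies on chromosome 4 from 89306299 to 89311039 (minus strand). It rested on 60, 143 and 129 counts, or 4.00, 7.5 and 6.00 TPM, a mean of 5.83 ± 1.76. The exact 95% Poisson intervals were 3.05 to 5.14, 6.32 to 8.83 and 5.01 to 7.13 TPM and cover counting error only, so replicate 1 was lower than replicate 2 by more than counting error, while its interval met that of replicate 3. Cdkn2b lay below Cdkn2c in 2 of 3 libraries, and the ranges of the 2 genes overlapped.

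Cdkn2a encodes p16Ink4a and, from the distal start and another reading frame, p19Arf, which stabilises p53. It lies on chromosome 4 from 89274471 to 89294653 (minus strand) and had 0 counts in every library. A limit of 3 counts per library allows up to 0.237, 0.187 and 0.166 TPM in replicates 1, 2 and 3. Counts were given per gene, so both products are covered by this 0. Against that limit Cdkn2b, which starts 16.4 kb upstream, stood at least 16.8-fold, 40.1-fold and 36.2-fold higher in replicates 1, 2 and 3.

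The D cyclins stood between the inhibitor families in summed level, and Ccnd1 led them. Ccnd1 lies on chromosome 7 from 144929931 to 144939925 (minus strand) and stood at 38.4, 60.3 and 54.7 TPM, a mean of 51.1 ± 11.4 (SD, n = 3). Replicate 1 was the low library. Ccnd3, on chromosome 17 from 47505051 to 47599691 (plus strand), stood at 25.6, 34.0 and 36.5 TPM, a mean of 32.0 ± 5.72, and replicate 1 was again the low one. Ccnd2, on chromosome 6 from 127125162 to 127152193 (minus strand), stood at 23.4, 25.5 and 17.8 TPM, a mean of 22.2 ± 4.01, with replicate 3 the lowest. The ends of Ccnd1 and Ccnd3 overlap Oraov1 by 1771 bases and Bysl by 361 bases on the opposite strand, and Ccnd2 overlaps the antisense gene 9330179D12Rik by 2805 bases. Whether reads were counted by strand was not given in the sources used here. The overlapping genes had a mean of 7.34, 11.1 and 0.167 TPM, below the cyclins.

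By mean TPM the order was Cdkn1a, Cdkn1b, Ccnd1, Cdkn2d, Ccnd3, Ccnd2, Cdkn1c, Cdkn2c, Cdkn2b and Cdkn2a. Ranges overlapped between Cdkn1b and Ccnd1, Ccnd1 and Cdkn2d, Cdkn2d and Ccnd3, and Cdkn2c and Cdkn2b. They did not overlap at the other 5 steps. Within families, 11 of 12 pairs of genes differed in the same direction in all 3 libraries on the log2(TPM + 1) scale. With 3 libraries the smallest p of a two-sided exact sign-flip permutation test is 0.25 (0.273 after Benjamini-Hochberg adjustment over the 12 pairs), so no pair could pass 0.05. Ccnd1 exceeded Ccnd3 by 0.65 ± 0.14 and Ccnd2 by 1.16 ± 0.44, and Cdkn1a exceeded Cdkn1b by 1.43 ± 0.25 (mean log2 difference ± SD, n = 3).

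Summed over the family, the CIP/KIP genes reached 296, 258 and 244 TPM in replicates 1, 2 and 3, and the INK4 genes 54.7, 46.5 and 39.7 TPM. The ratio was 5.41, 5.55 and 6.13, a mean log2 ratio of 2.51 ± 0.10, higher in 3 of 3 libraries (exact sign-flip p = 0.25, the smallest possible). The D cyclins summed to 87.3, 120 and 109 TPM. All 7 inhibitors together stood above all 3 cyclins by 4.01-fold in replicate 1 and by 2.54-fold and 2.60-fold in replicates 2 and 3 (mean log2 ratio 1.58 ± 0.37, exact sign-flip p = 0.25), so replicate 1 lay apart in this ratio. These sums set 7 genes against 3. Cdkn1a alone, at 196, 185 and 175 TPM, exceeded the summed cyclins in every library, and the ratio without Cdkn1a was not computed.

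The replicates did not move the members together. On the TPM scale replicate 1 was the highest library for 4 of the 9 detected members (Cdkn1a, Cdkn1b, Cdkn1c and Cdkn2d), against 59.8% of all detected genes. It was the lowest for 3 (Cdkn2b, Ccnd1 and Ccnd3), against 25.8%. TPM placed replicate 1 above the others by a median log2 ratio of 0.23 over detected genes, and scaling by TMM, DESeq2 size factors or the upper quartile brought that median to between -0.05 and -0.01. Under all 4 scalings Cdkn1b and Cdkn2d were highest in replicate 1, and Cdkn2b, Ccnd1 and Ccnd3 were lowest there. Cdkn1a and Cdkn1c lost their place as highest under each of the other 3 scalings. Cdkn1a and Cdkn2c became lowest under all 3, and Cdkn1c under TMM and DESeq2 size factors. The shares over all detected genes shifted the same way: those highest in replicate 1 made up 41.2% under TMM, 39.9% under DESeq2 size factors and 42.5% under upper quartile scaling, and those lowest 43.6%, 44.9% and 42.2%.

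**Figure D2:**
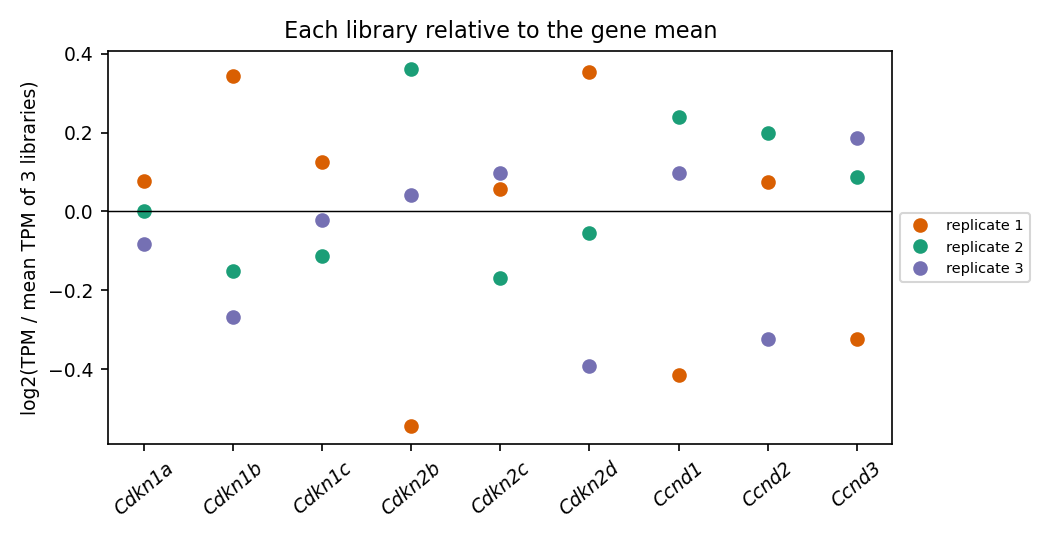
TPM of each library relative to the gene's mean over 3 libraries, as a log2 ratio, for the 9 members with counts. Replicate 1 lies above the other replicates for Cdkn1b and Cdkn2d and below them for Cdkn2b, Ccnd1 and Ccnd3, also under the other scalings, while its place for Cdkn1a, Cdkn1c and Cdkn2c changes with the scaling.

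With TMM scaling the log2 ratio of replicate 1 to the mean of the others was 0.29 for Cdkn1b and 0.31 for Cdkn2d. It was -1.01 for Cdkn2b, -0.84 for Ccnd1 and -0.72 for Ccnd3. Other genes moved with replicate 1 as well. The 12 genes known to respond to tissue dissociation, all detected, summed to 27325, 17664 and 12604 TPM in replicates 1, 2 and 3, and 11 of them were highest in replicate 1. The 8 suprabasal epidermis genes, all detected, summed to 4782, 6117 and 8440 TPM. The part of either in the members' values was not tested.

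The tagwise biological coefficient of variation, edgeR's estimate of spread per gene, was lowest for Cdkn1a with 0.189 and Cdkn1b with 0.196, and highest for Cdkn2b with 0.435. The median over the 13519 genes fitted was 0.271. Without replicate 1 the estimate fell to 0.10 for Cdkn1a and 0.265 for Cdkn2b.

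H3K27me3 is the mark that Polycomb repressive complex 2 places on silent developmental genes. The table gives each gene a whole number under this heading, whose unit and source cells are not stated. Of the 10 members, 2 had a value above 0, against 8.06% of all entries. Cdkn2a and Cdkn2b shared the value 49489 with the lincRNA gene Gm12606, and the 3 genes span 75.3 kb of chromosome 4. Gm12606 had 2, 0 and 7 counts. Mtap, the methylthioadenosine phosphorylase gene 54.6 kb beyond Gm12606, had a value of 0 and stood at 20.6, 17.1 and 16 TPM.

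**Figure D3:**
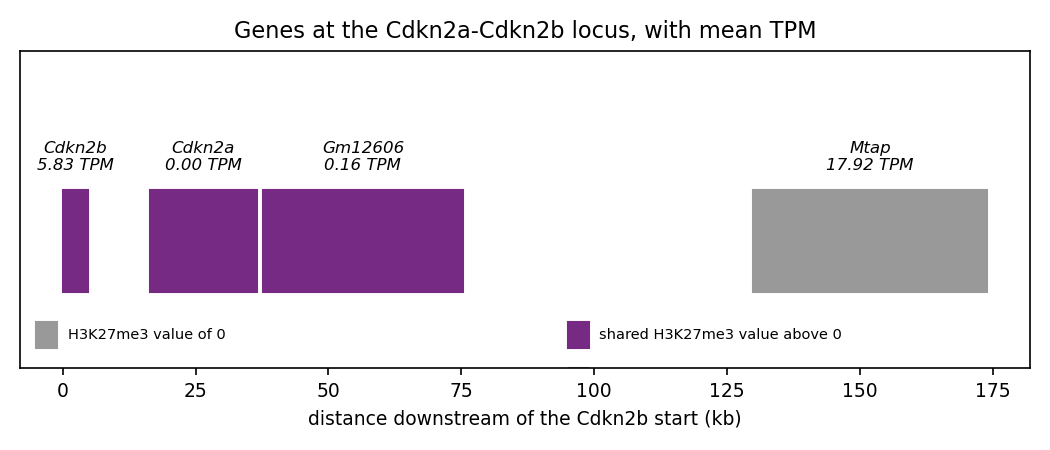
Genes at the Cdkn2a-Cdkn2b locus drawn to scale by distance from the start of Cdkn2b, with mean TPM over 3 libraries. Purple genes share an H3K27me3 value of 49489 and the grey gene has 0; among the purple genes Cdkn2b has 5.83 TPM, Gm12606 0.16 and Cdkn2a 0.

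Cdkn2b was thus detected in every library with the same H3K27me3 value as Cdkn2a, which had 0 counts. A value at least as large was held by 192 entries, of which 18, or 9.38%, were detected in every library, Cdkn2b among them. Of all detected genes, 2.9% had a value above 0. The other 8 members, at 7.80 to 185 TPM, had a value of 0. One shared number per locus does not show where within it the mark lies.

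The table also holds the authors' own comparison, which by its column names sets these libraries against libraries headed Bulge. Those per-sample values were not used here. Its direction was read from genes without counts here: all 2555 such genes with a fold change had a negative one in the authors' deposited table, so positive means higher in the Alpha6+/Sca1- libraries. An adjusted p was given for 9 members in the authors' deposited table, and 4 were called higher and 1 lower at an adjusted p under 0.05, against 23.6% and 32.0% of 20274 genes. Their median log2 fold change in the authors' deposited table was 0.77, beside -0.36 over all genes with an adjusted p. With 55.5% of all genes called in the authors' deposited table, 5 of 9 members lies near the background.

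Among the inhibitors, Cdkn2b had a log2 fold change of 2.66 (adjusted p = 0.00131) and Cdkn2d one of 2.63 (adjusted p = 8.88e-13) in the authors' deposited table. These are differences of 6.31-fold and 6.18-fold, above those of 95.2% and 95.05% of all genes. The call for Cdkn2b rests on the lowest counts of the detected members. Cdkn1a was higher by 0.79 (adjusted p = 8.34e-05) in the authors' deposited table, a 1.73-fold difference. Cdkn2c, at 0.77, did not pass (adjusted p = 0.242), nor did Cdkn1b at -0.01 (adjusted p = 0.967) and Cdkn1c at -0.06 (adjusted p = 0.891) in the authors' deposited table. Cdkn2a had no value there.

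**Figure D4:**
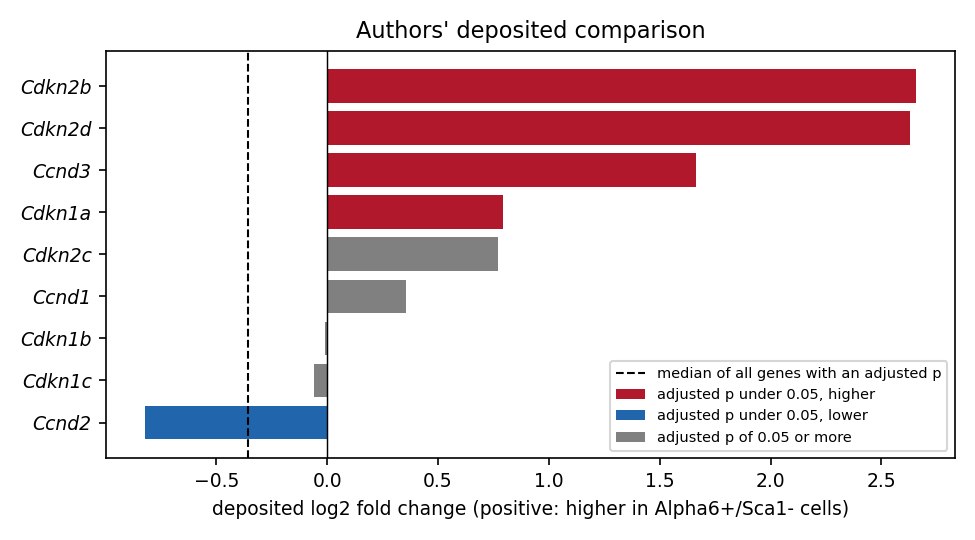
Log2 fold change of 9 members in the authors' deposited table (positive means higher in Alpha6+/Sca1- cells), coloured by the call at an adjusted p under 0.05; the dashed line is the median of all genes with an adjusted p, -0.36. Cdkn2b, Cdkn2d, Ccnd3 and Cdkn1a are called higher and Ccnd2 lower.

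The D cyclins went different ways. In the authors' deposited table Ccnd3 was higher by 1.66 (adjusted p = 8.29e-07), Ccnd2 was lower with a log2 fold change of -0.82 (adjusted p = 0.000619), and Ccnd1 at 0.36 did not pass (adjusted p = 0.333). The difference between these fold changes was not tested. The authors' deposited table further gives a score that is a product of 3 factors: H3K27me3 plus 1, the fold change on the log2 scale, and the adjusted p as its negative log10. Cdkn2b ranked 10 of 20274 by this score in the authors' deposited table, and the next member, Cdkn2d, ranked 1354. With the values in the authors' deposited table but without the H3K27me3 factor, an alternative chosen after seeing the data, Cdkn2b ranked 2487 and Cdkn2d 828.

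Markers of other cells moved in the same comparison. In the authors' deposited table, 8 of 8 suprabasal, 5 of 6 upper follicle and 9 of 12 dissociation response genes were higher, and 1 of the last was lower. Over all genes with an adjusted p, 23.6% were higher and 32.0% lower. The hair follicle stem cell markers gave 3 higher and 3 lower of 10 in the authors' deposited table. The part of these in the members' fold changes was not tested. How the Bulge libraries were collected and sequenced was not given in the sources used here, so batch and cell population cannot be told apart.

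The kinases that the members act on differed in level and in the deposited comparison. Cdk4, a partner of D cyclins, stood at 130, 138 and 143 TPM, and Cdk6, the other, at 6.45, 5.03 and 5.09 TPM. Cdk4 thus lay above every D cyclin in every library and Cdk6 below. Cdk2, named after its values were seen because CIP/KIP inhibitors act on it, stood at 64.3, 33.1 and 34.2 TPM and was highest in replicate 1. In the authors' deposited table Cdk4 was higher by 1.78 (adjusted p = 4.68e-15), Cdk2 higher by 1.40 (adjusted p = 1.69e-06) and Cdk6 lower with -3.24 (adjusted p = 1.65e-80). Of 13 CDKs and other cyclins, 12 were detected, 3 were higher and 5 lower in the authors' deposited table. For this list and those below, the shares over all genes with an adjusted p were 23.6% higher and 32.0% lower. Of all entries, 27% were detected. The counts per list are description and were not tested against these shares. Ccng1, a cyclin G gene induced by p53, had 63.9 ± 5.14 TPM (SD, n = 3), and Cdk5, a kinase best known from neurons, had the largest rise of the list, 1.95, in the authors' deposited table.

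Of 13 pocket protein and E2F or DP genes, 10 were detected, and 1 was higher and 4 lower in the authors' deposited table. Rb1, which encodes the retinoblastoma protein, stood at 17.3, 9.40 and 11.7 TPM and was lower in the authors' deposited table with a log2 fold change of -1.84. E2f1, an activating E2F, stood at 5.03 ± 1.04 TPM and was higher by 1.79 in the authors' deposited table. The most abundant of the list were Tfdp1, the DNA-binding partner of E2Fs, with 43.4 ± 2.54 TPM and E2f4, an E2F that works mainly in repression, with 34.5 ± 6.31 TPM (SD, n = 3). Of 8 genes of the MuvB core, Myb and FoxM1, which repress or activate cell cycle genes, 7 were detected, 1 was higher and 2 lower in the authors' deposited table. Rbbp4, a histone-binding subunit, led with 49.2 ± 3.17 TPM and rose by 1.38, Lin37 had 35.8 ± 9.49 TPM, and Mybl1 had the largest fall, -2.09, in the authors' deposited table.

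All 8 genes that activate CDKs or phosphorylate them for inhibition were detected, with 3 higher and 1 lower in the authors' deposited table. Cdc25b, a phosphatase that activates CDKs, stood at 56.1 ± 20.8 TPM, and Wee1, the kinase that opposes it, at 23.5 ± 3.14 TPM and -1.15 in the authors' deposited table. Pkmyt1, a kinase related to Wee1, had the largest rise, 1.36, in the authors' deposited table. Of 11 genes for the degradation of p27 and D cyclins, 10 were detected, 6 were higher and 4 lower in the authors' deposited table. Skp1a and Rbx1, subunits of the ubiquitin ligase that removes p27, had 370 ± 32.4 and 115 ± 12.3 TPM (SD, n = 3). In the authors' deposited table Fzr1, an activator of the anaphase-promoting complex, was higher by 2.37, and Gsk3b, a kinase that marks cyclin D1 for removal, was lower with -2.46.

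**Figure D5:**
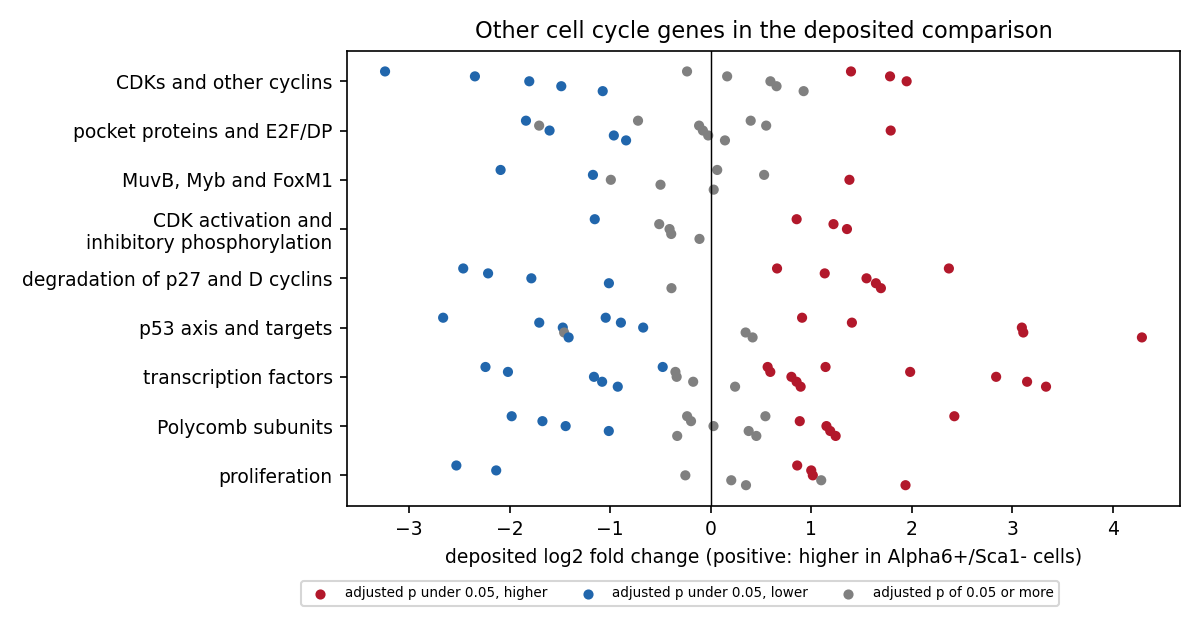
Log2 fold change in the authors' deposited table for each gene of 9 lists of cell cycle genes and regulators (1 point a gene, 1 row a list), coloured by the call at an adjusted p under 0.05. Every list has calls in both directions, as with Cdk4 at 1.78 and Cdk6 at -3.24 in the top row.

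Of 15 genes of the p53 axis, 14 were detected, with 5 higher and 7 lower in the authors' deposited table. Phlda3, a p53 target that restrains Akt, stood at 307 ± 48.3 TPM, and Trp63, the p53 relative that maintains basal keratinocytes, at 273 ± 14.1 TPM (SD, n = 3). Bbc3, a death-promoting p53 target, had the largest rise, 4.29, and Zmat3 the largest fall, -2.66, in the authors' deposited table. Targets of p53 thus lay on both sides, beside the rise of 0.79 for Cdkn1a.

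Of 20 transcription factors known to act on CDK inhibitors or D cyclins, 19 were detected, 10 were higher and 6 lower in the authors' deposited table. Klf4, which activates Cdkn1a, stood at 1946, 963 and 797 TPM, and Id3, an inhibitor of E proteins, at 700 ± 172 TPM (SD, n = 3). Id1, a BMP target, had the largest rise, 3.33, and Bach2 the largest fall, -2.24, in the authors' deposited table. All 16 Polycomb subunits and H3K27 demethylases were detected, 5 higher and 4 lower in the authors' deposited table. Pcgf2 had 46.0 ± 6.20 TPM and Cbx6 43.7 ± 2.06 TPM, Cbx6 rose by 2.42, and Kdm6a, an H3K27 demethylase, had the largest fall, -1.98, in the authors' deposited table. All 10 proliferation genes were detected, with 4 higher and 2 lower in the authors' deposited table. Pcna, the DNA clamp, stood at 147, 79.9 and 80.9 TPM, Mcm6, a helicase subunit, at 41.2, 32.6 and 36.6 TPM, and Mki67 at 6.71, 1.91 and 2.17 TPM. Mcm5 had the largest rise, 1.94, and Mki67 the largest fall, -2.53, in the authors' deposited table.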

How the data were processed

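Values came from 1 deposited table with 44625 gene entries. Per the submitters' processing notes, FastQC, SAMtools, TopHat2, DESeq2 and DESeq were used with the build mm10 (GRCm38); the counting tool and strand setting were not given in the sources used here. The authors deposited read counts per gene and TPM, per the file headers; TPM recomputed from counts and gene length differed by at most 4.72e-06. They deposited a log2 fold change and its adjusted p-value per gene; which tool made them was not stated. The H3K27me3 value and the last column are a score each, deposited by the authors without a unit. Another 6 columns of per-sample values match no sample and were not used.

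The rule for the members uses symbols alone, but this set of genes and the gene lists were chosen with earlier results of these data known. No contrast between groups could be fitted. The p-values over replicates rest only on the differences within these 3 libraries, mainly on whether they share a direction, and do not measure the spread between libraries. That spread may be technical. Levels were compared as log2(TPM + 1), and a gene was detected at a TPM of at least 1 in every library. Dispersions came from edgeR 4.0.16 (TMM, filterByExpr, 1 group; tested on simulated data), and DESeq2 1.42.0 gave size factors as an alternative. Coordinates come from GENCODE M21 by identifier (44392 matched). RefSeq promoters matched 7 members. In each list, the text names the 2 detected genes with the highest level, the called genes with the largest rise and largest fall, and genes with 0 counts; marker lists are given as sums, with genes that check the labels. All 3 libraries form 1 group, so no gene of like pattern was sought.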

Additional observations from a re-analysis of the deposited data

How the results depend on the processing

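Alternatives were a pseudocount of 0.1, TMM, DESeq2 and upper quartile scaling, detection at 0.5 or 5 TPM, other call limits, and leaving out each replicate. The 9 detected members became 8 at 5 TPM, where Cdkn2b was lost. The log2 ratio of CIP/KIP to INK4 ranged from 2.45 to 2.54 over its alternatives; TMM scaling cannot change it by construction. All 60 alternatives for differences within families kept their direction. For the 11 of 12 pairs with the same direction in all 3 libraries, these alternatives could not change it by construction. Only the difference of Cdkn2b and Cdkn2c could have turned. Requiring an absolute log2 fold change of at least 1 left 3 members called higher and 0 lower in the authors' deposited table, which loses Cdkn1a and Ccnd2, against 19% and 27.3% of all genes. Members highest in replicate 1 numbered 4 on the TPM scale and 2 under TMM or upper quartile scaling, and those lowest 3, 6 and 5, in alternatives chosen after seeing the data. Over all detected genes the shares moved likewise, from 59.8% highest to 41.2% and 42.5%, and from 25.8% lowest to 43.6% and 42.2%. Leaving out replicate 1 lowered the coefficient of variation by over 1.5 times for all 9 detected members. The common value over all genes fitted fell likewise, from 0.320 to 0.176, so this is not particular to the members. No paired analysis was possible because there is 1 group. Depth allows only an upper limit for Cdkn2a, and among the detected members it limits Cdkn2b most, with 332 counts in all, a counting error of 9.51% at its mean count.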

Other observations

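Of 95 protein-coding genes within 300 kb of the 8 members whose H3K27me3 value is 0, 8 had a value above 0, or 8.42%, against 11.2% of the 21426 protein-coding genes in the table. Within 300 kb of Ccnd1, whose value is 0, lie the fibroblast growth factor genes Fgf3, Fgf4 and Fgf15 with values of 20111, 10152 and 6263. Fgf3 and Fgf4 had 0 counts in every library and Fgf15 had 4, 7 and 1. Ccnd2, also at 0, has Fgf23 at 43.8 kb with a value of 9955 and 0 counts, while Fgf6, farther from Ccnd2, had a value of 0 and 0 counts. Cdkn1c, at 0 and 11.3 TPM, has Kcnq1 at 31.3 kb with 16871 and 0, 3 and 0 counts. Closer to Cdkn1c, Slc22a18 at 12.7 kb had a value of 0 and 29.9 TPM, as Tigar, 15.6 kb from Ccnd2, had 0 and 6.94 TPM. Gm27901, an entry that is not protein-coding, lay closer still to Cdkn1c, at 10.7 kb, with a value of 15511 and 0 counts. Another such entry, 9630013D21Rik, lay 3.02 kb from Cdkn2c with a value of 1181 and 2, 0 and 9 counts. Cpne5, 54.8 kb from Cdkn1a, had 6570 and 0.418, 0.700 and 0.546 TPM. Pde4a, 75.2 kb from Cdkn2d, had 2686 and 1.16, 1.51 and 0.982 TPM, and Akap3, 251 kb from Ccnd2, had 7258 and 0 counts. These neighbours were chosen after their values were seen and are given as description.

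Upstream windows of other members varied in CpG content. Of the 7 members with RefSeq entries, Cdkn1a has 2 starts, whose windows held 2 and 19 CpG dinucleotides, and Cdkn2c has 2, with 29 and 6. Counts were given per gene, so the level from each start is not known.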
